A study of Homo sapiens with 4 samples.

Results

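The transcripts of 7 potassium channel genes were followed in HT29, an established human colorectal adenocarcinoma line, across 2 libraries of untreated cells and 2 libraries of cells kept with 100 µM fluorouracil for 2 h. The 7 genes, KCNE3, KCNQ1, KCNN4, KCNK1, KCNK5, KCNK6 and KCNJ14, were taken by exact symbol from a table of 33117 rows, and each had 1 row under that symbol. Fluorouracil is a pyrimidine analogue used against colorectal cancer, whose metabolites inhibit thymidylate synthase and are built into RNA. All libraries came from total RNA of cells grown in DMEM with fetal calf serum. No vehicle was named for the untreated cells, and nothing says whether replicates were separate cultures, so any p-value covers only how far these libraries differ, which can be technical. Levels are FPKM, which scales fragments to the length of the transcript and the size of the library, so they can be compared between genes. The genes were selected on their FPKM in these same 4 libraries, with the differences between treated and untreated cells known. Their values are therefore given as a description, with no test.

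Potassium channels let potassium leave the cell and so keep the membrane voltage negative. In colonic crypt cells this provides the electrical drive for chloride to leave through CFTR at the apical side, while the sodium-potassium pump and the cotransporter SLC12A2 load the ions at the basolateral side. KCNQ1 forms the pore of a basolateral channel, and its small partner KCNE3 holds that pore open so that it serves secretion stimulated by cyclic AMP. KCNN4 is the pore of the calcium-activated channel of the same cells, KCNK1, KCNK5 and KCNK6 are leak channels with paired pore domains, and KCNJ14 is an inward rectifier.

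KCNE3 and KCNJ14 stood apart from the other members, in opposite directions. Sequence near the start of each is shown because their changes were large, and of 1 direction, in both treated libraries. The KCNE3 sequence is chr11:74467500-74467799 on the minus strand, from 250 bases before to 50 bases after the start of the gene in RefSeq (GRCh38.p14), and capitals mark matches to GGGCGG, the core of a GC box. In GENCODE 29 the gene starts farther upstream, at 74467729, so much of this sequence lies inside the gene as annotated there. The KCNJ14 sequence is 30 bases of the plus strand, chr19:48455466-48455495 in the same build, cut from the window chr19:48455324-48455623. Capitals mark the only match to TATAAA in that window, which reads on the minus strand. The 30 bases end before the GENCODE 29 start of KCNJ14, at 48455509, and do not hold the 2 GGGCGG matches of the window.
KCNE3: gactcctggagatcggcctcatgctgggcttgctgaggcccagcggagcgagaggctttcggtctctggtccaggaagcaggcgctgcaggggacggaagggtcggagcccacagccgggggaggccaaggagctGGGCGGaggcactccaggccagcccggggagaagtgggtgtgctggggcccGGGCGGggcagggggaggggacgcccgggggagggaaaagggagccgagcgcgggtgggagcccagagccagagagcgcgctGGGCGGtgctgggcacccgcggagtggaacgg
KCNJ14: ccctgtatctccTTTATAtggaaacattaa

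Promoter windows of this kind were held for 6 of the 7 members, all but KCNQ1. They are set by the RefSeq start, and the KCNN4 window lies wholly inside the gene as annotated in GENCODE 29. On either strand, GGGCGG occurred in all 6 windows, and in 44.6% of the 27305 windows of the whole table. The GC content of the 6 windows was 59.7% (KCNJ14) to 76.0% (KCNK5), each above the median of 58.3% over all windows. GGGCGG holds only G and C, and its matches were not compared with windows of like GC content, so nothing is read from them. The letters TGANTCA, which AP-1 factors bind, occurred in 0 of the 6 and in 7.76% of all windows. The cyclic AMP response element TGACGTCA occurred in 0 of the 6 and in 1.98% of all, and the CArG box of serum response factor in 0 of the 6 and in 1.29% of all. The EGR-type letters GCGNGGGCG, of which GGGCG overlaps GGGCGG, occurred in 1 of the 6, KCNK1, and in 9.28% of all. The CCAAT box was also found in KCNK1 alone among the members (35.7% of all), TATAAA in KCNK1 and KCNJ14 (12.0% of all), and the E-box CACGTG in KCNN4 (7.43% of all). These are matches of letters and do not show binding.

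The 4 libraries did not resemble each other equally. Across 12462 genes, those averaging 1 FPKM or more, fluorouracil replicate 1 correlated with untreated replicate 1 at r = 0.96 and fluorouracil replicate 2 at r = 0.709 (log2 values, across genes, which are not independent replicates). The FPKM of fluorouracil replicate 2 summed to 764348, against 426453 to 440023 in the other libraries, and its changes against the untreated mean followed the GC content of the transcripts (r = 0.577 across genes, against 0.042 for replicate 1). Genes below 45% GC had a median log2 change of -0.62 in that library and genes above 60% GC a median of 1.36. Numbers deposited for that library had 6 significant digits at the median, against 16 in each other library, and whether its reads were processed differently, which would bear on each of its values given here, was not tested. Sequencing depth is unknown, and values carry no counting interval. Of 9 colon epithelial markers, 7 reached 1 FPKM in every library, among them KRT8, KRT18 and EPCAM, while the intestinal transcription factors CDX1 and CDX2 stayed below 1 FPKM in all 4. Markers of fibroblasts, endothelium and neurons were all below 1 FPKM. The leukocyte marker CD14 had 1.36 to 1.91 FPKM in 3 libraries and 8.69 in fluorouracil replicate 2, whereas PTPRC stayed below 0.01 FPKM. The part of these differences in the results was not tested.

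In untreated cells the order of the channel genes was led by KCNE3, at 17.0 and 18.2 FPKM, followed by KCNK1 at 14.9 and 12.7 FPKM. KCNK5 and KCNK6 came next, and their values overlapped. KCNQ1 and KCNJ14 followed, with overlapping values as well, and KCNN4 was the lowest at 0.139 and 0.154 FPKM. In fluorouracil replicate 1 the order was KCNK1, KCNJ14, KCNE3, KCNK5, KCNK6, KCNQ1 and KCNN4. In fluorouracil replicate 2 KCNJ14 came first and KCNE3 sixth, with KCNN4 last again.

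**Figure D1:**
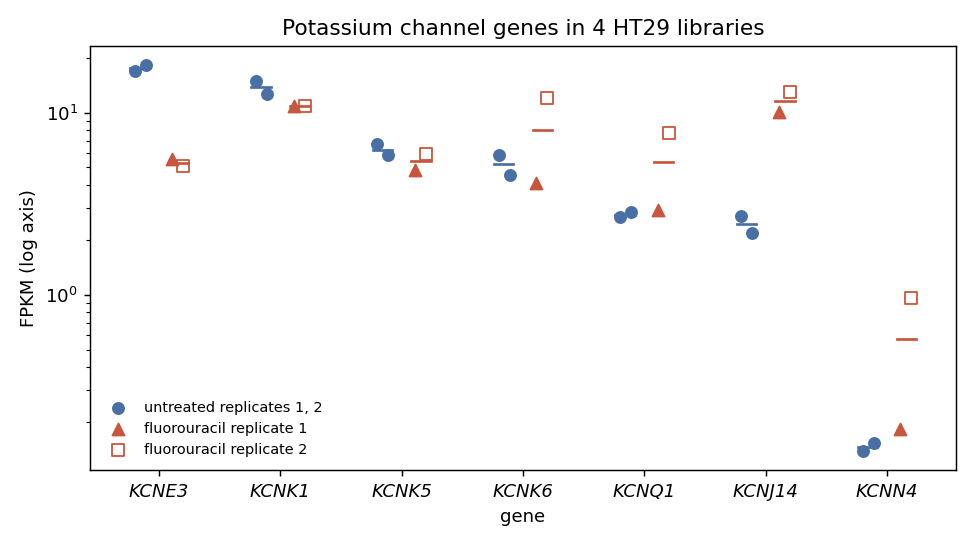
FPKM (log axis) of the 7 channel genes in each library, with filled circles for the untreated libraries, a triangle for fluorouracil replicate 1, an open square for fluorouracil replicate 2, and horizontal lines at the mean of each group of 2. KCNE3 lies at 17.0 and 18.2 FPKM untreated and at 5.57 and 5.07 treated, KCNJ14 at 2.69 and 2.17 against 10.1 and 12.98, and the treated libraries lie far apart for KCNQ1, KCNK6 and KCNN4.

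Among the 6 members that averaged 1 FPKM or more, 2 had both treated values above both untreated values (KCNJ14 and KCNQ1), 2 had both below (KCNE3 and KCNK1), and 2 overlapped (KCNK5 and KCNK6). Of all 12462 genes, 24.4% had both treated values above and 19.3% had both below. The members were chosen with this contrast known, so nothing is read from their count. With every library scaled to the same sum, the counts over all genes were 1597 above and 3869 below, against 3043 and 2409 as deposited, and the median log2 change of all genes went from 0.10 to -0.32. KCNE3 and KCNK1 stayed below and KCNJ14 stayed above on that scale, after quantile normalization and after a correction that removed each library's trend with GC content and length (GC-corrected values below). KCNQ1 overlapped after equal scaling and after quantile normalization. By limma, 0 of 12462 genes had an adjusted p below 0.05 (0% of genes) and 400 had an unadjusted p below 0.05 (3.21%). With 2 libraries against 2, an exact permutation test cannot give a two-sided p below 0.333.

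KCNE3, the regulatory subunit of the secretory channel, went from 17.0 and 18.2 FPKM without the drug to 5.57 and 5.07 FPKM with it. Both treated libraries were low. In FPKM they differed from each other by less than the untreated pair did, and on the log2 scale by slightly more. The group means were 17.6 ± 0.838 and 5.32 ± 0.355 FPKM (SD, n = 2), a ratio of 3.31 of untreated to treated. Log2 changes here and below refer to FPKM plus 0.1, against the mean of the untreated libraries. They were -1.64 in fluorouracil replicate 1 and -1.78 in replicate 2. In fluorouracil replicate 1, where most genes changed little, 51 of the 12462 genes had a lower change, and in replicate 2, where changes were widely spread, 859 did. The GC-corrected changes were -1.64 and -1.62. In RNA from bulk cells, fewer cells that express a gene and less RNA per cell cannot be told apart. KCNE3 occupies chromosome 11 from 74454841 to 74467729 on the minus strand (GENCODE 29, GRCh38), where the annotation also has antisense transcripts. No source used here gives a strand setting, so reads of the 2 strands cannot be told apart.

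KCNQ1, the pore that KCNE3 joins, did not follow its partner. Untreated libraries held it at 2.66 and 2.83 FPKM, fluorouracil replicate 1 at 2.90 FPKM and fluorouracil replicate 2 at 7.76 FPKM. Replicate 1 was close to the untreated pair, and replicate 2 alone was high. The log2 change in replicate 1 was 0.08 and in replicate 2 it was 1.47, and the latter was 0.50 when GC-corrected. The KCNQ1 transcript used for that correction has a GC content of 63.7%, the highest of the members, against 48.0% for KCNE3. The ratio of KCNE3 to KCNQ1 in FPKM was therefore 6.39 and 6.42 in the untreated libraries, 1.92 in fluorouracil replicate 1 and 0.653 in fluorouracil replicate 2. Most of the shift of that ratio in replicate 1 came from the KCNE3 value. KCNQ1 spans chromosome 11 from 2444684 to 2849110 on the plus strand (GENCODE 29, GRCh38). The antisense transcript KCNQ1OT1 lies within it and shares 121 exonic bases with it. Its FPKM were 0.612 and 0.691 without the drug and 1.18 and 0.767 with it.

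KCNN4, the calcium-activated channel, was barely detected. Its FPKM were 0.139 and 0.154 without the drug and 0.182 and 0.964 with it, a mean below 1 FPKM, so it was outside the genes tested. The treated values lay above the untreated ones, and in fluorouracil replicate 1 only just. They overlapped after quantile normalization.

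The leak channels with paired pore domains shared a direction in fluorouracil replicate 1 but not in replicate 2. In replicate 1 the log2 changes were -0.33 for KCNK1, -0.35 for KCNK5 and -0.32 for KCNK6. Each gene lay below both of its untreated values there, whereas KCNK6 was above both in replicate 2. KCNK1, also named TWIK-1, had 14.9 and 12.7 FPKM without the drug and 10.9 FPKM in each treated library. The untreated values were both higher, by a gap smaller than that between the untreated libraries. The group means were 13.8 ± 1.57 and 10.9 ± 0.000684 FPKM (SD, n = 2). The log2 change was -0.33 in each treated library, and 1413 genes in fluorouracil replicate 1 and 4244 in replicate 2 had lower changes. KCNK5, also named TASK-2, had 6.68 and 5.81 FPKM without the drug and 4.85 and 5.95 FPKM with it. Only fluorouracil replicate 1 lay below the untreated pair. The GC-corrected log2 changes of KCNK5 were -0.33 and -0.68, with both treated values below. KCNK6, also named TWIK-2, had 5.85 and 4.54 FPKM in the untreated pair, 4.11 in fluorouracil replicate 1 and 11.97 in replicate 2. The treated libraries went opposite ways, with log2 changes of -0.32 and 1.20. They still did so when GC-corrected, at -0.30 and 1.04. The ratio of KCNK1 to KCNK6 was 2.55 and 2.79 untreated, 2.66 in fluorouracil replicate 1 and 0.912 in replicate 2.

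**Figure D2:**
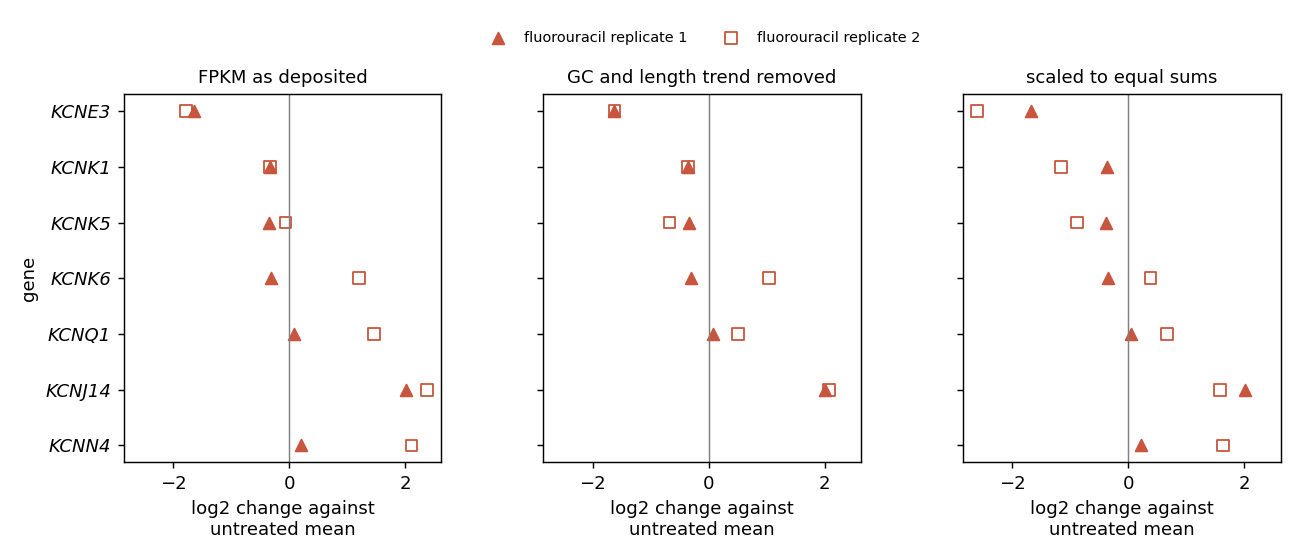
Log2 change of each channel gene against the mean of the untreated libraries, with a triangle for fluorouracil replicate 1 and an open square for replicate 2, for FPKM as deposited, for GC-corrected values (KCNN4 not included) and with each library scaled to the same sum. KCNE3 and KCNK1 lie left of 0 and KCNJ14 right of 0 in every panel, and the symbols of KCNK6 lie on both sides of 0 in each.

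KCNJ14, which encodes the inward rectifier Kir2.4, had the highest ratio of group means, treated to untreated, of the members. Its level went from 2.69 and 2.17 FPKM without the drug to 10.1 and 12.98 FPKM with it. Both treated libraries were high, and the groups were far apart relative to the difference within each. The means were 2.43 ± 0.368 and 11.5 ± 2.05 FPKM (SD, n = 2), a ratio of 4.74. The log2 changes were 2.02 and 2.38, and the GC-corrected ones 2.00 and 2.07. In fluorouracil replicate 1, 92 of the 12462 genes had a higher change, and in replicate 2, 474 did. KCNJ14 and KCNE3 thus exchanged places: KCNE3 had 6.31 and 8.37 times the FPKM of KCNJ14 in the untreated libraries and 0.552 and 0.390 times in the treated ones.

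The value of KCNJ14 is uncertain because its locus overlaps other genes at both ends. KCNJ14 runs from 48455509 to 48466980 on the plus strand of chromosome 19 (GENCODE 29, GRCh38), and GRWD1, a ribosome assembly factor, runs from 48445773 to 48457022. KCNJ14 and GRWD1 share 1514 bases. All 350 bases of the first KCNJ14 exon lie in exons of GRWD1, as do all 300 bases of the KCNJ14 promoter window, so the TATAAA match shown above is in transcribed sequence of GRWD1. The other KCNJ14 exons start beyond the end of GRWD1. GRWD1, named here after its values were seen, had 45.3 and 42.9 FPKM without the drug and 29.4 and 38.8 FPKM with it. It was lower in both treated libraries, while KCNJ14 was higher in both. KCNJ14 amounted to 5.95% and 5.06% of the FPKM of GRWD1 in the untreated libraries and to 34.3% and 33.5% in the treated ones. At the other end, the last 1144 bases of KCNJ14 lie in AC008403.1, a protein-coding gene model on the same strand, which shares 121 exonic bases with KCNJ14. The antisense gene AC008403.2 overlaps KCNJ14 by 1388 bases and shares 715 exonic bases with it. The levels of these gene models were not analysed here. CYTH2, which lies farther downstream on the strand, had 28.96 and 32.6 against 33.6 and 62.5 FPKM. Whether reads of these overlapping genes were counted for KCNJ14 was not tested.

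**Figure D3:**
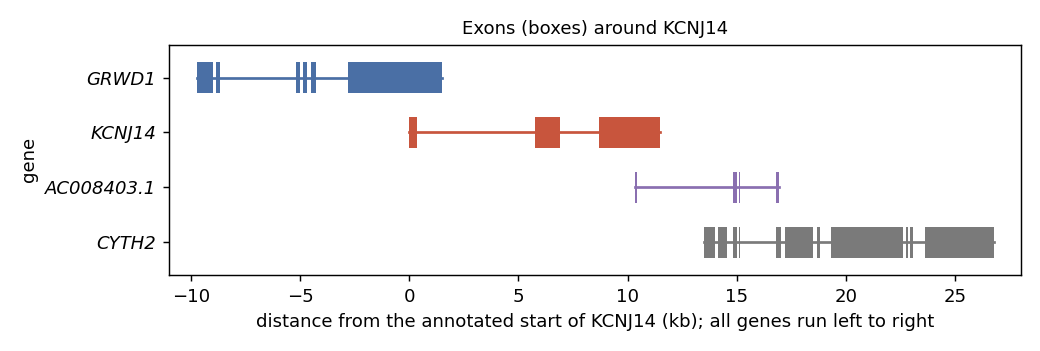
Annotated exons of GRWD1, KCNJ14, AC008403.1 and CYTH2, all on the plus strand (boxes, all transcripts of a gene merged; lines span the gene) by distance in kb from the annotated start of KCNJ14. The first KCNJ14 exon, 350 bases, lies within the last GRWD1 exon, and the last KCNJ14 exon holds the first exon of AC008403.1, which shares 121 bases with it; the antisense gene AC008403.2 is not drawn.

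The genes most like KCNE3 and KCNJ14 were found by the Euclidean distance between log2 values over the 4 libraries, each taken against the untreated mean of its gene, among 12461 other genes. For KCNE3 the nearest 3 were HCAR1, a lactate receptor, at a distance of 0.079, COLCA1 at 0.199 and the kinase gene PLK2 at 0.231. HCAR1 had 16.3 and 17.3 FPKM without and 5.60 and 4.75 FPKM with the drug, and COLCA1 4.02 and 5.22 against 1.40 and 1.22 FPKM. For KCNJ14 the nearest were CYR61, a secreted matrix protein, at 0.203, PLEKHO2 at 0.306 and the immediate early gene IER5 at 0.342. CYR61 had 2.63 and 2.34 FPKM without and 10.5 and 11.8 FPKM with the drug, and PLEKHO2 2.33 and 1.67 against 7.65 and 8.89 FPKM.

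**Figure D4:**
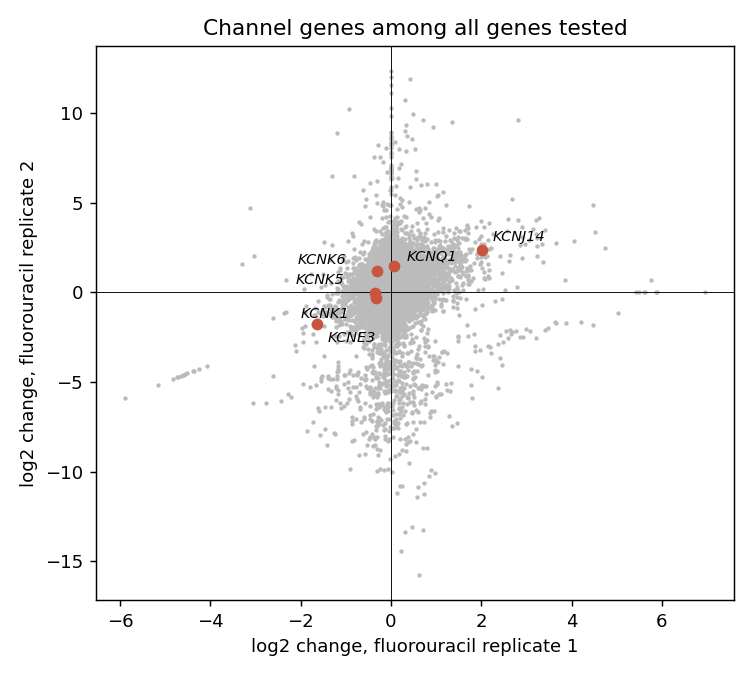
Log2 change in fluorouracil replicate 1 (x axis) against that in fluorouracil replicate 2 (y axis) for the 12462 genes tested (grey) and the 6 tested channel genes (red). KCNE3 lies in the lower left and KCNJ14 in the upper right, and KCNK6 lies left of 0 and above 0.

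The remaining potassium channel genes were mostly weak or listed at 0 in HT29. Of 90 other subunit genes on the list, 89 were in the table, 36 were listed at 0 in all libraries, and 6 reached a mean of 1 FPKM. No gene of the 12462 passed the limma test (adjusted p from 0.671), so the adjusted result says nothing particular of the 6. Of the 6, 0 had an unadjusted limma p below 0.05, against 3.21% of all genes. Some reached that mean through 1 group: KCNMB3 and KCNIP2 averaged below 1 FPKM in the untreated libraries, and KCNJ3 in the treated ones. No common direction is read from the 6. Over the 53 listed genes with any value above 0 the median log2 change was 0.20, against 0.15 over all such genes. KCNMB3, an accessory subunit of the large-conductance calcium-activated channel, had 1.07 and 0.798 FPKM without and 1.90 and 2.05 FPKM with the drug. Its relative KCNMB4 had 1.18 and 1.06 against 1.22 and 3.08 FPKM, and KCNAB2, a cytoplasmic subunit of voltage-gated channels, 0.922 and 1.26 against 1.26 and 4.21 FPKM. In these last 2 genes fluorouracil replicate 2 alone was clearly high, and the groups overlapped after quantile normalization, for KCNAB2 also with equal library sums. KCNJ3, an inward rectifier gated by G proteins, had lower treated values, with 1.498 and 2.09 untreated against 1.23 and 0.743 FPKM. KCNIP2, which encodes a calcium-binding partner of voltage-gated channels, had overlapping values of 0.650 and 1.11 against 1.05 and 1.59 FPKM.

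The carriers that work with these channels were far more abundant. Of 27 epithelial ion transport genes, 16 were tested. Of these, 5 had both treated values above, 3 had both below and 8 overlapped, where 24.4% of all genes had both above and 19.3% both below. None passed the limma test (adjusted p from 0.671, also the lowest over all genes tested, none of which passed). Of the 16, 0 had an unadjusted limma p below 0.05, against 3.21% of all genes. The median log2 change was 0.28, against 0.10 over all genes. With equal library sums it was -0.15, against -0.32, and after quantile normalization -0.04, against -0.02. The 3 with lower values all serve chloride secretion or its ion gradients. SLC12A2, the sodium-potassium-chloride cotransporter, had 118 and 137 FPKM without and 99.5 and 44.7 FPKM with the drug. ATP1B1, the beta subunit of the sodium-potassium pump, had 162 and 160 against 116 and 65.3 FPKM. CFTR, the apical chloride channel, had 21.7 and 25.4 against 17.7 and 9.34 FPKM. In all 3 the lowest library was fluorouracil replicate 2, and the adjusted p was 0.671 for each by limma. The GC-corrected log2 changes in fluorouracil replicates 1 and 2 were -0.33 and -0.50 for SLC12A2, -0.50 and -1.17 for ATP1B1, and -0.39 and -0.32 for CFTR.

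Higher treated values were found in SLC26A6, an anion exchanger, which had 4.45 and 5.26 against 7.57 and 15.7 FPKM. CLCN2, a chloride channel, had 7.93 and 8.28 against 9.75 and 21.96 FPKM. In both genes fluorouracil replicate 2 was the highest library, and the groups did not overlap under equal sums, quantile normalization or the GC correction either.

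**Figure D5:**
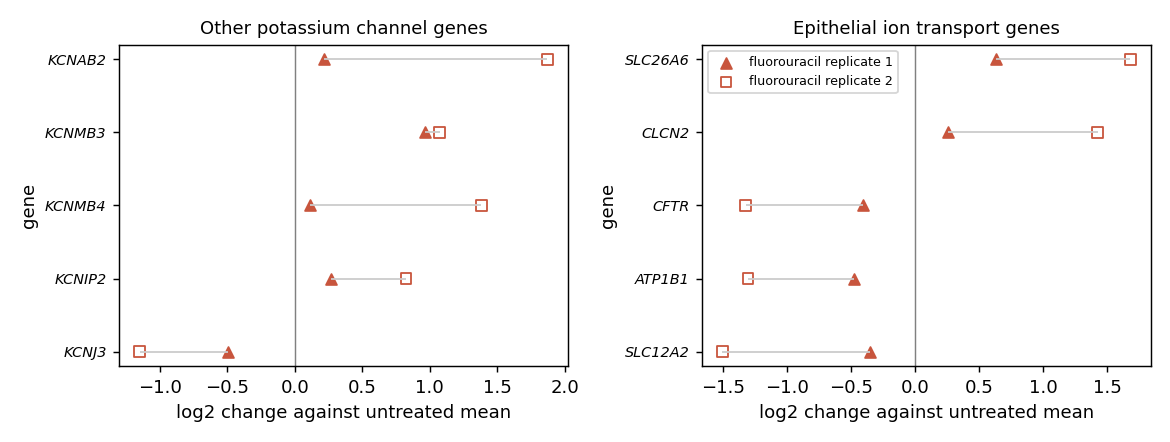
Log2 change against the untreated mean in fluorouracil replicate 1 (triangles) and replicate 2 (open squares) for 5 other potassium channel genes and 5 epithelial ion transport genes given in the text, with a grey line joining the 2 values of a gene. CFTR, ATP1B1, SLC12A2 and KCNJ3 lie left of 0 in both libraries, and in each of the 10 genes replicate 2 lies farther from 0 than replicate 1.

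Regulators of these channels and of secretion showed little common change. Of 22 such genes, 20 were tested, 1 had both treated values above, 5 had both below and 14 overlapped, where the shares of all genes were 24.4% and 19.3%. None passed the limma test (adjusted p from 0.671, also the lowest over all genes tested, none of which passed). Of the 20, 0 had an unadjusted limma p below 0.05, against 3.21% of all genes. The median log2 change was -0.03, against 0.10 over all genes, and it was 0.10 when GC-corrected, against 0.14. Of the genes named next, PRKACB alone kept non-overlapping groups when GC-corrected. SGK1, a kinase that raises the surface level of several ion transporters, had 20.1 and 17.96 FPKM without and 10.1 and 15.4 FPKM with the drug. PRKACB, a catalytic subunit of protein kinase A, had 2.88 and 2.72 against 1.79 and 0.843 FPKM. SENP1, which removes SUMO, had 9.61 and 8.71 against 8.70 and 4.32 FPKM. ORAI1, the pore of the store-operated calcium channel, was the gene with higher values, at 7.89 and 5.99 against 8.24 and 33.6 FPKM. NDFIP1 and NDFIP2, adaptors of ubiquitin ligases, had log2 changes of -0.18 and -0.12, each with both treated values below.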

How the data were processed

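RNA-seq of 2 untreated and 2 fluorouracil-treated HT29 libraries was analysed. The authors deposited 1 FPKM value per gene and library. Per the submitters' processing notes, TopHat2 2.1.0 and Cufflinks 2.2.1 were used, with the builds hg38 and mm10 named without their roles; no source used here gives the annotation, the strand setting or how libraries were scaled to each other. FPKM depends on the length model and on the library total.

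Of 33117 rows, 28 with a date-like number for a symbol were left out. Values were taken as log2(FPKM + 0.1), and the 12462 genes averaging 1 FPKM or more were compared by limma 3.58.1 in R 4.3.3 (trended prior variance, two-sided, 2 residual degrees of freedom, Benjamini-Hochberg adjustment, threshold 0.05). The members and gene lists were chosen with earlier results of these data known. The rule for other genes takes the 6 remaining channel genes tested, up to 6 genes per list with non-overlapping groups and the largest changes, a few secretion genes such as SLC12A2, CFTR and ATP1B1 whatever their values, and the 3 genes nearest to KCNE3 and to KCNJ14; some genes it takes are not reported here. Positions are from GENCODE 29 on GRCh38, and promoter sequences from RefSeq on GRCh38.p14. The GC and length trend of each library was removed by loess (span 0.3) over 10513 genes with a protein-coding transcript, the longest of which gave GC content and length; this step was added after the data were seen. Both steps were checked on simulated data, in which every library had the noise of the untreated pair and the GC trend was linear. Those checks do not cover the wider spread of fluorouracil replicate 2. The alternatives were other pseudocounts, no filter, equal library sums, quantile normalization, each library left out, a replicate block and a constant prior variance.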

Additional observations from a re-analysis of the deposited data

How the results depend on the processing

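The log2 change of KCNE3 ranged from -2.14 to -1.56 over 9 alternatives and that of KCNJ14 from 1.79 to 2.38. KCNK1 ranged from -0.76 to -0.22, KCNK5 from -0.64 to -0.06, KCNQ1 from 0.08 to 1.47, and KCNN4, over 8 alternatives, from 0.20 to 2.11, each with 1 sign. KCNK6 ranged from -0.32, without fluorouracil replicate 2, to 1.20, without fluorouracil replicate 1, and had its main sign in 8 of 9. KCNQ1 was at 0.08 without fluorouracil replicate 2 and 1.47 without replicate 1.

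The 0 genes with an adjusted limma p below 0.05 (400 at an unadjusted p below 0.05) became 339 with the replicate block, where the unadjusted count was 1046. Same-numbered libraries deviated together at r = -0.048. With so few libraries per group and the wide spread of changes in fluorouracil replicate 2, that value cannot show or exclude a pairing. The labels name no pairs, so the numbers were not taken as pairs. Leaving out 1 library gave 0 to 8337 genes adjusted (8337 without fluorouracil replicate 1, 18 without replicate 2) and 47 to 8843 unadjusted (47 and 59 without untreated replicates 1 and 2, 8843 and 1825 without fluorouracil replicates 1 and 2). A lone library in a group is assumed to vary like the other group. The unadjusted count was 956 with no filter, where 20180 genes were tested, 240 with equal sums and 935 for GC-corrected values. Genes with both treated values above numbered 4792 with no filter, 1597 with equal sums, and 4015 to 6594 with 1 library left out. Genes with both below numbered 3869 with equal sums and 3173 to 5165 with 1 library left out, where fewer values have to be separated.

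Of the other channel genes, some of the 6 that averaged 1 FPKM or more reached that mean through 1 group only. No direction is read from medians over those 6. The median of the other channel genes was 0.75 for the 6 (0.10 over all genes). It was 0.20 with no filter (53 genes; 0.15 over all genes), 0.35 with equal sums (-0.32 over all genes), and 0.24 (without fluorouracil replicate 2) to 0.95 (without replicate 1) with 1 library left out. The ion transport median was -0.15 with equal sums and -0.083 (without fluorouracil replicate 2) to 0.77 (without replicate 1) with 1 library left out. The regulator median was -0.46 with equal sums, -0.17 after quantile normalization, 0.10 for GC-corrected values, and -0.14 (without fluorouracil replicate 1) to 0.038 (without untreated replicate 2) with 1 library left out. The cause of these shifts was not tested. The depth of the libraries is unknown, which limits what can be said of KCNN4.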
